A study of Mus musculus with 21 samples.

Results

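The genes described here encode the signalling chains of the T cell receptor and its close partners. They were taken by name: Cd3d, Cd3e, Cd3g and Cd247 (the CD3 delta, epsilon, gamma and zeta chains), Trac (the constant part of the receptor alpha chain), Cd8a and Cd8b1 (the chains of the CD8 coreceptor), Lck, Cd5 and Cd28. These are 10 of the 17516 genes in the tables, and all 10 were present in each of the 21 libraries. The libraries were single-cell RNA-seq libraries of mouse OT-1 T cells, CD8 cells that share 1 transgenic receptor for an ovalbumin peptide. 1 library held naive cells on day 0. All others held cells stimulated with beads coated with antibodies to CD3 and CD28. After stimulation, cells were cultured without cytokine to day 3 or day 5, or with IL-2, IL-2v or IL-15, each at 5 or 50 IU/mL, to day 3, 5 or 10. The label of IL-2v names a mutant IL-2. Each condition had 1 library, and the labels do not say how many mice each library came from. No test between conditions was made: matched libraries are compared by their values and directions, p-values are not given, and intervals cover counting error only. Because the beads bind CD3 and CD28 themselves, stimulation in this culture bypassed the receptor's peptide ligand. The transgene also carries receptor alpha and beta chain genes, and UMIs of Trac from the transgene and from the mouse's own locus cannot be told apart in these tables.

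The receptor's alpha and beta chains bind peptide on MHC but have no signalling tail of their own, and they reach the cell surface only when assembled with the CD3 chains and zeta. CD8 binds MHC class I and brings the kinase Lck to the complex, where Lck phosphorylates the tails of CD3 and zeta. CD5 is an inhibitory surface receptor whose level follows the strength of receptor signalling in developing T cells, and CD28 is the main costimulatory receptor of naive T cells. Receptor and CD8 protein are also taken in from the surface after stimulation, which RNA counts do not measure.

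The CD3 genes lie side by side. In GRCm38 (GENCODE vM21 annotation), Cd3g occupies chr9:44969572-44980431 on the minus strand, Cd3d chr9:44981786-44987339 on the plus strand and Cd3e chr9:44998740-45009627 on the minus strand. The starts of Cd3g and Cd3d are 1355 bases apart and the genes are read away from each other. Cd8b1 (chr6:71322788-71337494) and Cd8a (chr6:71373427-71379173) are neighbours on the plus strand. Cd5 is at chr19:10717116-10739002, minus strand, Cd247 at chr1:165788681-165877277, plus strand, and Cd28 at chr1:60716800-60773359, plus strand. Lck is at chr4:129548344-129573641, minus strand, and Trac at chr14:54220521-54224206, plus strand. Genes on the opposite strand, among them Pou2f1, cover 56.4% of the exonic bases of Cd247. Whether the counting used strand is not given in the sources used here, so values of Cd247 are uncertain.

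RefSeq start sites (GRCm38.p6) were listed for 7 of the 10 genes, with 8 windows in all since Lck has 2. The 250 bases before the start are shown for the CD3 genes, which are neighbours, and for Cd8a and Cd5, which were lower at the higher cytokine dose. Capitals mark matches, on either strand, to core letters of 3 factor families: TGTGGT (RUNX), AGGAAG (ETS) and CTTTGA (TCF/LEF). The windows are chr9:44980432-44980681 (minus strand), chr9:44981536-44981785 (plus), chr9:45009612-45009861 (minus), chr6:71373177-71373426 (plus) and chr19:10738975-10739224 (minus), each written 5′ to 3′ on the gene's strand.
Cd3g: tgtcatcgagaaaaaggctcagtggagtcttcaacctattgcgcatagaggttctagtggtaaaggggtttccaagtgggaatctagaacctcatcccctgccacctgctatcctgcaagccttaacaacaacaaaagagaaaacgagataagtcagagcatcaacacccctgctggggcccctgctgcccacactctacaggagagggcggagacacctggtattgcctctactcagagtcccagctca
Cd3d: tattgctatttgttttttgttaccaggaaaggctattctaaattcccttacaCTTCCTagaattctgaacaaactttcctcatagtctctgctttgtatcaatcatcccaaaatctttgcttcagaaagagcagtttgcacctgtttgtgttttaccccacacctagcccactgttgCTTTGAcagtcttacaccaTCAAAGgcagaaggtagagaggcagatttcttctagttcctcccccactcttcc
Cd3e: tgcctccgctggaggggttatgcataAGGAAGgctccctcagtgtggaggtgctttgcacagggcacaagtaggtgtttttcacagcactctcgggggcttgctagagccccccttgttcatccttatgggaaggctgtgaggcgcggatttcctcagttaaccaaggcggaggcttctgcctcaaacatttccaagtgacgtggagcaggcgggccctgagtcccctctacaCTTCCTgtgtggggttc
Cd8a: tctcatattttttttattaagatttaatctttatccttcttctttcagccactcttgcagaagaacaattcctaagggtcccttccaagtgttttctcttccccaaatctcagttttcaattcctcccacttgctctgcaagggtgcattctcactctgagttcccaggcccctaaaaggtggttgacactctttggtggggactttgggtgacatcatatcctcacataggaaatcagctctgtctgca
Cd5: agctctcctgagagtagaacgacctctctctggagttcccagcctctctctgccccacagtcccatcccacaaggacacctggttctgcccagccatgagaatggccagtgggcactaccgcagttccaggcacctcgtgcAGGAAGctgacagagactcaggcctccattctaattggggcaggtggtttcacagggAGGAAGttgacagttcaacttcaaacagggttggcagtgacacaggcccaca
The Cd3d window held 1 ETS and 2 TCF/LEF matches, and the windows of Cd3e and Cd5 held 2 ETS matches each. The Cd3g and Cd8a windows held none of the 3 words. Of 32851 windows of this length, 29.5% held the ETS letters, 14.0% the RUNX letters and 13.8% the TCF/LEF letters, so such matches are common.

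The tables held 106458 cell barcodes, of which 106456 were kept, with 3250 to 7105 cells and 10589950 to 32648496 UMIs (unique molecular identifiers, each a captured RNA molecule) per library. The median cell held 3016 to 5065 UMIs. A pair of libraries shared 7 barcode sequences in the median and 19 at most. Ms4a1, Lyz2, Csf1r and Ncr1 were at 0 in 20 of 21 each. Cd79a, a B cell marker like Ms4a1, was seen in every library, with at most 1.15 CPM. The summed level of 3 myeloid markers was at most 1.03 CPM (the gene's UMIs scaled to a common library total). Cd4 reached 4.39 CPM at most, in naive cells. The sum of 4 gamma delta T cell markers ranged from 60.4 to 339 CPM, of which Trdc made 52.0 to 294, and the sum of 3 NK markers from 0 to 38.5, highest in 50 IU/mL IL-2v on day 10. Trbv12-1 was the leading receptor beta variable segment in all 21 libraries, with 63.6% to 94.9% of 184 to 981 Trbv UMIs (70.7% in naive cells, exact 95% interval 66.9% to 74.3%). Its share was lower at 50 than at 5 IU/mL in each pair of equal cytokine and day. On day 10 it was 93.2% at 5 and 64.2% at 50 IU/mL in IL-2, 89.3% and 73.7% in IL-2v, and 94.9% and 91.0% in IL-15. This difference was not tested. These counts were added after the data were seen.

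Across the 21 libraries, Cd5 and the CD8 beta chain varied most and the kinase Lck and zeta least. For Cd5, the highest library (naive) was 19.4 times the lowest (50 IU/mL IL-2, day 10). The ratio was 6.58 for Cd8b1, 5.45 for Cd28 and 3.62 for Cd8a. It was 2.94 for Cd3g, 2.66 for Trac, 2.46 for Cd3e, 2.35 for Cd3d, 1.96 for Lck and 1.82 for Cd247. The median ratio was 2.59 over 5495 genes that averaged 20 CPM or more. Without the day 10 library in 50 IU/mL IL-2 the ratio was 6.06 for Cd5 and 4.03 for Cd8b1, below that of Cd28, and without the day 10 library in 50 IU/mL IL-15 that of Cd28 was 3.10, so these ratios each rest on 1 library. These values were added after the data were seen. Over all 21 libraries, a larger ratio than that of Cd5 was seen in 4.46% of these genes, than that of Cd8b1 in 12.1%, and than that of Cd247 in 87.4%. The naive library was the highest for Cd8a, Cd8b1, Cd5, Trac and Cd247, and the day 5 library without cytokine was the highest for Cd3d, Cd3e, Cd3g and Lck. The day 10 library in 50 IU/mL IL-2 was the lowest for Cd8a, Cd8b1, Cd5, Trac and Lck. With libraries placed in order, the exact Poisson 95% intervals of neighbours overlapped in 9 of 20 steps for Cd8b1, 10 for Cd3d and Cd3g, 11 for Cd8a, 12 for Cd3e and Cd28, 14 for Trac, 15 for Cd5, 16 for Lck and 19 for Cd247.

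**Figure D1:**
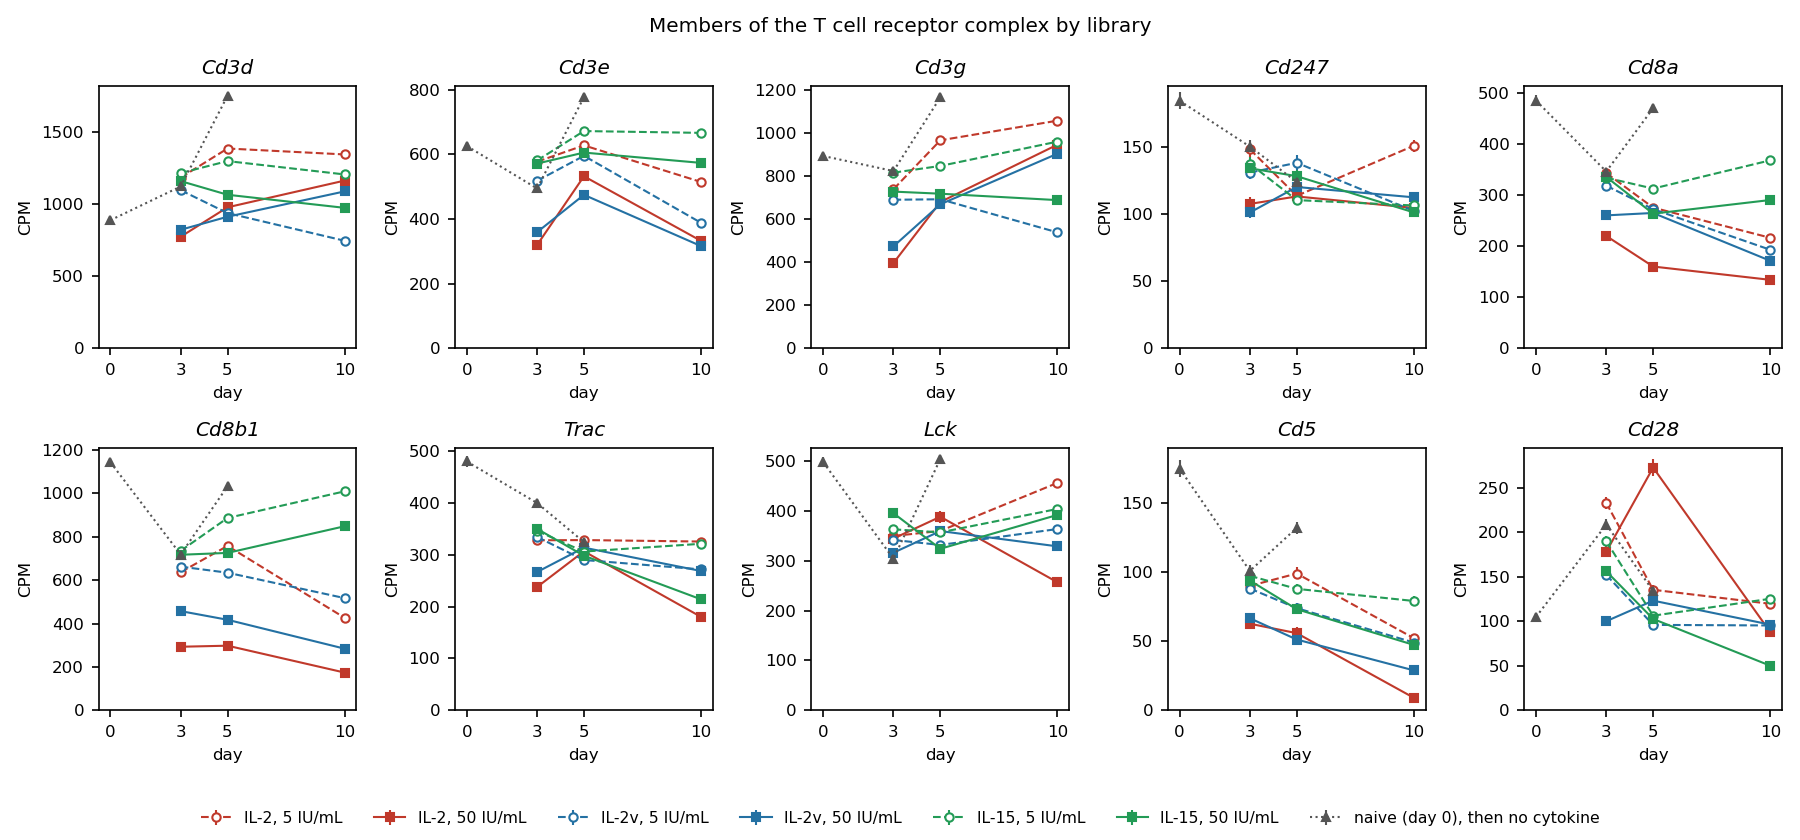
Level of each gene (CPM, vertical axis from 0) by day of culture (horizontal axis) in the 21 libraries; colours mark the cytokine, open circles 5 IU/mL, filled squares 50 IU/mL, triangles the naive library and culture without cytokine, and bars exact Poisson 95% intervals, mostly smaller than the symbols. Lines join libraries of one condition. Cd8b1 in 50 IU/mL IL-2 lies at 293, 298 and 174 CPM on days 3, 5 and 10, below the other conditions of each day.

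The first comparison asked what 3 days after bead stimulation without cytokine did to these transcripts. None of the 10 genes passed the threshold of a 2-fold difference in either direction, whereas of 6171 genes tested 11.1% passed in the higher and 8.31% in the lower direction. The CD3 chains were split. Cd3d was at 888 CPM in naive cells and 1121 on day 3, while Cd3e was at 626 and 494 and Cd3g at 892 and 822. Cd247 was at 184 and 150.2 CPM, and Trac at 479.8 and 399.8. The coreceptor chains were lower on day 3, Cd8a at 485 against 346 CPM and Cd8b1 at 1144 against 718. Lck was at 498 and 304 CPM and Cd5 at 175 and 101. Cd28 went the other way, with 105 CPM (interval 100.2 to 109.6) in naive cells and 209 (203 to 215) on day 3.

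On the log2(CPM + 1) scale the differences between day 3 and naive cells were 0.99 for Cd28, 0.34 for Cd3d, -0.12 for Cd3g, -0.26 for Trac, -0.29 for Cd247 and -0.34 for Cd3e. They were -0.49 for Cd8a, -0.67 for Cd8b1, -0.71 for Lck and -0.79 for Cd5, and the median over all genes tested was -0.11. Cd5, Lck and Cd8b1 were thus the lowest of the 10, and Cd28 sat just under the threshold. Under each of 5 scalings Cd28 was the highest of the 10 and Cd8a, Cd8b1, Lck and Cd5 the lowest, in this order, but the zero point moved. In mean UMIs per cell, where the median over all genes was 0.25, the differences of Cd3e, Cd247, Trac and Cd3g were positive (0.03, 0.07, 0.11 and 0.25), and those of Cd8a, Cd8b1, Lck and Cd5 stayed negative (-0.12, -0.30, -0.34 and -0.42). Cd28 passed the threshold in UMIs per cell (1.35), with TMM scaling, which uses trimmed means of gene ratios (1.04), in cells with no UMI of the proliferation genes Mki67 and Top2a (1.10), and without cells above 2 times the median UMIs (1.01). Cells with a UMI of Mki67 or Top2a were 3.01% of naive cells and 60.0% of day 3 cells. Among cells without those UMIs, where the median over all genes was -0.23, Cd3g was at 0.11, Trac at -0.11, Cd247 at -0.12, Cd3e at -0.25, Cd8a at -0.40, Cd8b1 at -0.44, Cd5 at -0.60 and Lck at -0.72. Cd3g thus changed sign in these cells, and the other 9 genes kept theirs.

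Culture for 2 more days without cytokine went with higher levels of most of these genes, though none passed 2-fold (of 5785 genes tested, 3.61% passed in the higher and 9.47% in the lower direction). Cd3d was at 1750.5 CPM on day 5, Cd3e at 777 and Cd3g at 1164, the highest of the 21 libraries for each. Cd8a was at 469.8 and Cd8b1 at 1033 CPM, near their naive levels, and Lck at 504. Cd5 was at 132 CPM, between its day 3 and naive levels. The log2 differences from day 3 were 0.73 for Lck, 0.65 for Cd3e, 0.64 for Cd3d, 0.52 for Cd8b1, 0.50 for Cd3g, 0.44 for Cd8a and 0.39 for Cd5, against a median of -0.0016 over all genes. Trac (324 CPM), Cd247 (124) and Cd28 (134) were lower than on day 3, by log2 differences of -0.30, -0.28 and -0.63. In UMIs per cell, where the median over all genes was -0.25, the rises were smaller. By that measure Cd5 was at 0.50 on day 3 and 0.55 on day 5, Cd8a at 1.73 and 1.97, and Cd8b1 at 3.59 and 4.34. Cycling cells made up 13.8% of the day 5 library.

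Cytokine libraries of days 3 and 5 were next compared with that day's culture without cytokine. Over 12 such comparisons of 10 genes, 8 values were at least 2-fold lower and 1 was at least 2-fold higher, and all 9 were at 50 IU/mL of IL-2 or IL-2v. On day 3, Cd3g (log2 difference -1.05) and Cd8b1 (-1.29) passed in 50 IU/mL IL-2, where 2.74% of genes were lower past 2-fold and 6.45% higher. Cd28 passed in 50 IU/mL IL-2v on day 3 (-1.05, with 1.75% of genes lower and 7.83% higher; with a pseudocount of 10 CPM the value was -0.99). On day 5, Cd8a (-1.55), Cd8b1 (-1.79) and Cd5 (-1.23) passed in 50 IU/mL IL-2, where 7.54% of genes were lower. Cd8b1 (-1.31) and Cd5 (-1.35) passed in 50 IU/mL IL-2v on day 5, where 5.53% were lower and 21.1% higher. The single higher value was Cd28 in 50 IU/mL IL-2 on day 5 (1.02), where 16.5% of genes were higher; it was under the threshold with TMM scaling (0.87), in UMIs per cell (0.65), with a pseudocount of 10 CPM (0.97) and with totals that leave out ribosomal protein and mitochondrial genes (0.92).

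At 5 IU/mL on day 3, 3 comparisons with no member past the threshold had backgrounds of 0.106% (IL-2), 0.0704% (IL-2v) and 0.285% (IL-15) of genes lower, and 0.142%, 0.211% and 0.142% higher. In these libraries, all 10 genes lay within -0.45 to 0.26 of the library without cytokine. In IL-15 at 50 IU/mL on day 3 the 10 genes lay within -0.42 to 0.38, with Cd8b1 at 717 CPM against 718 without cytokine and no member past the threshold (0.261% of genes lower, 0.819% higher). On day 5, no member passed in IL-15 at 5 or 50 IU/mL (0.321% and 1.9% of genes lower, 1.42% and 5.82% higher), in 5 IU/mL IL-2 (0.36% lower, 2.14% higher) or in 5 IU/mL IL-2v (2.62% lower, 9.75% higher). The median over the 10 genes was -0.76 in 50 IU/mL IL-2v and -0.38 in 5 IU/mL IL-15 on day 5, where the medians over all genes were 0.30 and -0.08. With TMM scaling the number of lower values past 2-fold was 13 in place of 8, the added ones being Cd3d, Cd3e, Cd3g and Cd8a in 50 IU/mL IL-2v and Cd3d in 5 IU/mL IL-2v, all on day 5. The 6 comparisons of a day share their library without cytokine.

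The dose comparison set 50 against 5 IU/mL in 9 pairs of equal cytokine and day. The CD8 beta chain, CD5 and CD3 epsilon were lower at the higher dose in every pair, and none of the 10 genes was higher in the median. No gene of the 10 was past 2-fold in the median with 1 sign in all pairs (0.365% of 5760 genes tested passed this in the lower and 0.938% in the higher direction). Counting direction alone, 3 of the 10 (Cd3e, Cd8b1 and Cd5) were lower in 9 of 9 pairs, against 3.87% of all genes. In at least 8 of 9 pairs, 6 of the 10 were lower (also Cd3d, Cd3g and Cd8a), against 10.9% of all genes. Medians over the 9 pairs were -0.60 for Cd8b1, -0.52 for Cd5, -0.30 for Cd3e, -0.29 for Cd8a and Cd3d, -0.28 for Cd28 and -0.24 for Cd3g. Trac (-0.10), Cd247 (-0.07) and Lck (-0.04) were near the median of all genes, 0.03. Several of these medians depended on the scaling or on 1 day. Trac was lower in 9 of 9 pairs with TMM scaling (median -0.29) and in 8 of 9 with totals that leave out ribosomal protein and mitochondrial genes (-0.25), its median was -0.28 in UMIs per cell (6 of 9), and it was -0.39 without day 5. The median of Cd247 was -0.19 with TMM scaling and -0.22 without day 5, and that of Lck was 0.04 without day 10. The median of Cd28 was -0.02 without day 3 and -0.17 without day 10, and that of Cd3g was -0.37 without day 10. Cd8b1 and Cd5 were lower in 9 of 9 pairs under each of the 4 other scalings and among cells without a Mki67 or Top2a UMI. Cd3e was lower in 8 of 9 pairs in UMIs per cell and among cells without those UMIs. In UMIs per cell, Cd3d and Cd3g were lower in 6 of 9 pairs and Cd8a in 7, and the median of Cd3d was -0.12. With TMM scaling, Cd3d and Cd3g were lower in 7 of 9 pairs and Cd8a in 9.

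**Figure D2:**
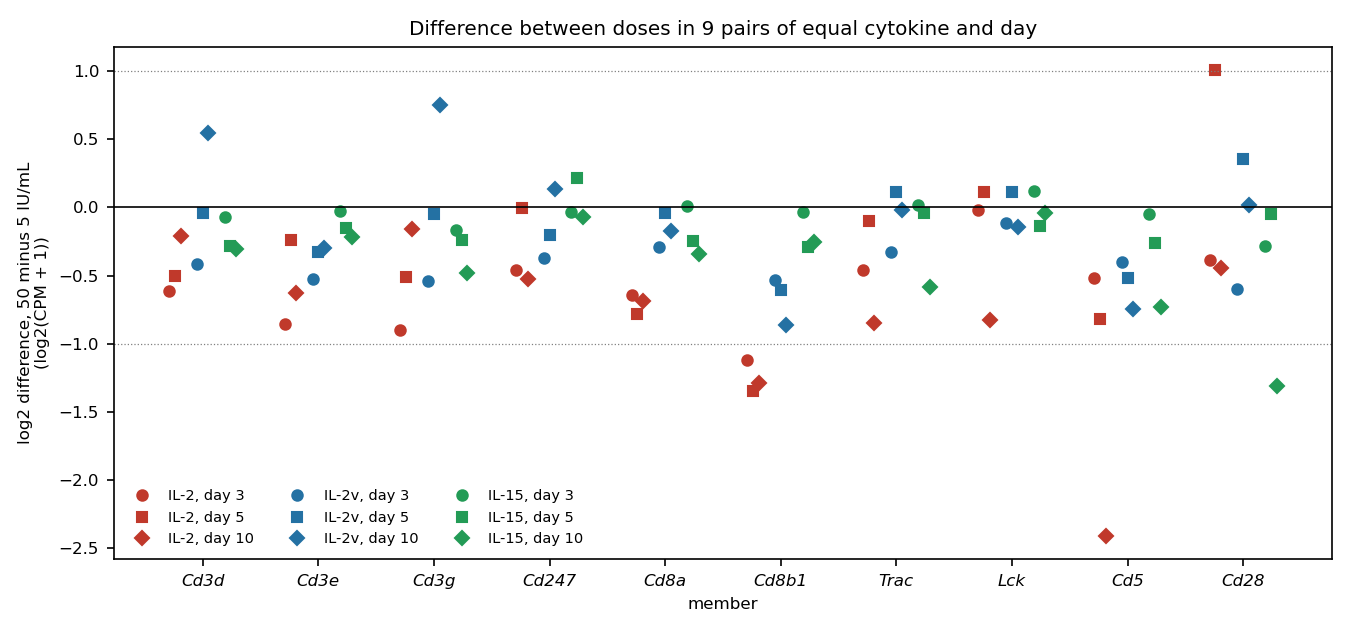
Difference between 50 and 5 IU/mL on the log2(CPM + 1) scale (vertical axis) for each gene (horizontal axis) in 9 pairs of equal cytokine (colour) and day (symbol); dotted lines mark 2-fold. Cd8b1 in the 3 IL-2 pairs lies between -1.34 and -1.12, Cd5 in IL-2 on day 10 at -2.41, and all 9 values of Cd3e, Cd8b1 and Cd5 are below 0.

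Cd8b1 carried the dose difference most clearly in IL-2. At 5 and 50 IU/mL IL-2 it was at 637 and 293 CPM on day 3, 758 and 298 on day 5, and 426 and 174 on day 10. In IL-2v it was at 662 and 457 CPM on day 3, 634 and 417 on day 5, and 517 and 284 on day 10. In IL-15 it was at 735 and 717 CPM on day 3, 887 and 726 on day 5, and 1009.6 and 849 on day 10. Every pair was thus lower at 50 IU/mL, the IL-15 pairs by less than those of IL-2 and IL-2v. The gene passed the 2-fold threshold within IL-2 (median -1.29, range -1.34 to -1.12), where 2.7% of 5879 genes tested were lower by this rule and 4.29% higher. It did not within IL-2v (median -0.60, range -0.86 to -0.53; 0.626% of genes lower and 2.38% higher) or IL-15 (median -0.25, range -0.29 to -0.04, and median -0.14 without day 5; 0.181% lower and 0.869% higher). After each cell was thinned at random to 2000 UMIs, 79.6% of cells (exact 95% interval 78.5% to 80.7%) had a Cd8b1 UMI in 5 IU/mL IL-15 on day 10. In 50 IU/mL IL-2 on day 10 it was 29.4% (28.1% to 30.7%), and in naive cells 78.9% (77.6% to 80.1%).

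Cd8a, the chain that pairs with Cd8b1, had a smaller spread. At 5 and 50 IU/mL IL-2 it was at 343 and 219.7 CPM on day 3, 275 and 159.9 on day 5, and 216 and 134 on day 10. In IL-2v it was at 318 and 260.0 CPM on day 3, 272 and 265 on day 5, and 193 and 171 on day 10, and in IL-15 at 334 and 335 CPM on day 3, 312 and 263 on day 5, and 368 and 290.1 on day 10. Only IL-2 had a clear step at each day, with log2 differences of -0.64, -0.78 and -0.69, none past 2-fold. In its day 10 pair the median over all genes was -0.30, and with TMM scaling Cd8a was at 212 and 163 CPM. The difference in IL-15 on day 3 was 0.01, the single pair in which Cd8a was not lower at 50 IU/mL. The share of thinned cells with a Cd8a UMI was lower at 50 IU/mL in 8 of 9 pairs, a count made for the 10 genes only. It ran from 56.5% in naive cells to 21.5% in 50 IU/mL IL-2 on day 10.

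Cd5 was the most variable of the 10. At 5 and 50 IU/mL IL-2 it was at 90.0 and 62.6 CPM on day 3, 99.0 and 55.8 on day 5, and 52.2 and 9.02 on day 10. In IL-2v it was at 88.1 and 66.6 CPM on day 3, 73.9 and 51.2 on day 5, and 49.0 and 28.9 on day 10, and in IL-15 at 97.3 and 93.9 CPM on day 3, 87.9 and 73.2 on day 5, and 79.1 and 47.3 on day 10. The day 10 library in 50 IU/mL IL-2 (interval 7.93 to 10.2) was far below all others, the next being 50 IU/mL IL-2v on day 10 (26.9 to 31.0). Within IL-2 the median difference was -0.82 (range -2.41 to -0.52), short of 2-fold. It was past 2-fold with TMM scaling (-1.004), in UMIs per cell (-1.19), without day 3 (-1.61) and without day 5 (-1.46), and was -0.67 without day 10. The share of thinned cells with a Cd5 UMI was 27.7% (26.4% to 29.1%) in naive cells, 18.8% (17.6% to 19.99%) on day 3 without cytokine and 2.09% (1.70% to 2.54%) in 50 IU/mL IL-2 on day 10. It was lower at 50 IU/mL in 9 of 9 pairs, a count made for the 10 genes only.

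Among the CD3 chains, Cd3e was lower at 50 IU/mL throughout. At 5 and 50 IU/mL IL-2 it was at 577 and 319 CPM on day 3, 628 and 532 on day 5, and 514 and 332 on day 10. In IL-2v it was at 518 and 359 CPM on day 3, 595 and 475 on day 5, and 388 and 316 on day 10. In IL-15 it was at 581 and 571 CPM on day 3, 672 and 605 on day 5, and 666 and 574 on day 10. The step was between -0.85 and -0.24 in IL-2, -0.53 and -0.30 in IL-2v, and -0.22 and -0.02 in IL-15. Cd3d and Cd3g, whose products each pair with CD3 epsilon, were lower in 8 of 9 pairs each. In some pairs their steps were close to each other and unlike that of Cd3e, and in others they were not. In IL-2 on day 5 the steps of Cd3d and Cd3g were -0.50 and -0.51, where that of Cd3e was -0.24, and on day 10 they were -0.21 and -0.16, where it was -0.63. In this day 10 pair the median over all genes was -0.30. There Cd3d and Cd3g were higher at 50 IU/mL with TMM scaling (1319 and 1413 CPM, 1037 and 1149 CPM) and in UMIs per cell (6.27 and 6.42, 4.93 and 5.22). In IL-2v on day 5 the steps of Cd3d and Cd3g were -0.04 and -0.05, where that of Cd3e was -0.33. In IL-2v on day 10, Cd3d was at 745 CPM at 5 and 1087 at 50 IU/mL (0.55). Cd3g was at 538 and 903 (0.75), while Cd3e was at 388 and 316 (-0.30). That day 10 library in 5 IU/mL IL-2v was the lowest of all 21 for Cd3d. The largest steps down were in IL-2 on day 3, with Cd3g at 738 and 395 CPM (-0.90) and Cd3d at 1183 and 773 (-0.61). There the step of Cd3g was nearer to that of Cd3e (-0.85) than to that of Cd3d. The same held in IL-2v on day 3, with Cd3g at 689 and 473 CPM and Cd3d at 1096 and 821.

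Of the remaining genes, Trac and Cd247 were lower at 50 IU/mL in 7 of 9 pairs and Cd28 and Lck in 6. The share of all genes at these counts was not taken. Over the 9 pairs, 26.3% of genes tested had a lower median than Trac, 30.1% than Cd247, 9.91% than Cd28 and 34.8% than Lck. Cd28 was at 233 and 178 CPM on day 3, 135 and 273 on day 5, and 119.7 and 87.9 on day 10 at 5 and 50 IU/mL IL-2. In IL-2v it was at 152 and 100.1 CPM on day 3, 96.0 and 123 on day 5, and 95.3 and 96.3 on day 10, and in IL-15 at 190.1 and 156 CPM on day 3, 106 and 103 on day 5, and 125 and 50.1 on day 10. The day 5 library in 50 IU/mL IL-2 was the highest of the 21 (log2 difference from 5 IU/mL 1.005) and the day 10 library in 50 IU/mL IL-15 the lowest (-1.31). The share of thinned cells with a Cd28 UMI was 38.5% (36.7% to 40.4%) and 8.99% (8.31% to 9.72%) in these libraries. In the IL-2 pair, Cd28 was at 149 and 263 CPM with TMM scaling and at 0.58 and 0.89 UMIs per cell, both short of 2-fold. In that pair 814 of 5765 genes tested were higher past 2-fold, and in the IL-15 pair 129 of 5437 were lower. Trac, the receptor alpha constant region, had its largest step in IL-2 on day 10 (325 and 180.1 CPM, -0.85). For Lck the same library stood apart (456 and 257 CPM, -0.83) with the other pairs within -0.14 to 0.12. In this pair the median over all genes was -0.30, and with TMM scaling Trac was at 319.5 and 219 CPM and Lck at 448 and 312. Cd247 lay within 101 to 151 CPM in all 18 cytokine libraries. Doses also differed in cycling: in IL-2, cells with a Mki67 or Top2a UMI were 62.8% at 5 and 73.8% at 50 IU/mL on day 3, 18.7% and 50.4% on day 5, and 18.2% and 13.4% on day 10. Among cells without such UMIs the median dose difference of Cd8b1 was -0.82 and that of Cd5 -0.64.

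For each pair of cytokines, 6 pairs of libraries with the same day and dose were compared. With IL-15, Cd8b1 was higher than with IL-2 in 6 of 6 pairs (median 1.26, range 0.21 to 2.28) and was past 2-fold, as were 0.49% of 5718 genes tested (1.7% were lower). At 50 IU/mL the differences were 1.29, 1.28 and 2.28 on days 3, 5 and 10, and at 5 IU/mL 0.21, 0.23 and 1.24. Without day 10 the median was 0.75 and the threshold was not reached. Cd3e was also higher with IL-15 in 6 of 6 pairs (median 0.28, range 0.01 to 0.84; 7.68% of all genes were higher in 6 of 6). Cd8a (median 0.66) and Cd5 (0.48) were higher in 5 of 6 pairs, Cd28 (-0.32) was lower in 5 of 6, and the other genes had medians within -0.04 to 0.03. The share of all genes with 1 sign in 5 of 6 pairs was not counted. Of genes tested, 98.1% had a lower median than Cd8a, 95.3% than Cd5 and 14.4% than Cd28. Without day 10 the medians of Cd8a, Cd5 and Cd3e were 0.40, 0.25 and 0.14, without day 5 that of Cd3e was 0.58, and without day 3 that of Cd28 was -0.57. Cd3e was higher in 5 of 6 pairs by the mean CPM of single cells and among cells without a Mki67 or Top2a UMI.

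Between IL-2v and IL-2, none of the 10 genes passed (1.04% of 5839 genes were higher and 0.274% lower by this rule), and none had 1 sign in all 6 pairs (17.0% of genes were higher and 4.21% lower in 6 of 6). Cd8b1 was higher with IL-2v in 5 of 6 pairs (median 0.38, range -0.26 to 0.71), with 0.64, 0.49 and 0.71 at 50 IU/mL. The share of all genes with 1 sign in 5 of 6 pairs was not counted. Of genes tested, 86.2% had a lower median than Cd8b1 and 2.55% a lower one than Cd28. Cd28 was lower in 5 of 6 (median -0.55, range -1.14 to 0.13), and in 6 of 6 with TMM scaling (median -0.64). The pair that turned, day 10 at 50 IU/mL, was nearly level by that scaling (106.5 CPM with IL-2v and 106.9 with IL-2). Cd5 differed most on day 10 at 50 IU/mL, where it was at 28.9 CPM with IL-2v and 9.02 with IL-2 (1.58). Against IL-15, IL-2v libraries had less Cd8b1 (median -0.72, range -1.58 to -0.15), Cd3e (-0.51, -0.86 to -0.17) and Cd5 (-0.50, -0.69 to -0.14) in 6 of 6 pairs. None passed 2-fold (0.585% of 5810 genes did in the lower and 2.48% in the higher direction), and 8.02% of all genes were lower in 6 of 6. Without day 10 the median of Cd3e was -0.26. The 3 cytokine comparisons share libraries.

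Days were compared in 6 pairs of equal cytokine and dose. No member passed 2-fold from day 3 to day 5 (2.22% of 5912 genes were lower and 0.829% higher by this rule) or from day 5 to day 10 (1.62% of 5676 lower and 0.0705% higher). Cd3e was higher on day 5 than on day 3 in 6 of 6 pairs (median 0.21, range 0.08 to 0.73; 12.5% of genes were higher in 6 of 6). It was lower on day 10 than on day 5 in 6 of 6 (median -0.44, range -0.68 to -0.01; 10.1% of genes). In UMIs per cell Cd3e was higher on day 5 than on day 3 in 4 of 6 pairs and lower on day 10 than on day 5 in 3 of 6 (median -0.07). The count for day 10 was 5 of 6 with TMM scaling and 4 of 6 with totals that leave out ribosomal protein and mitochondrial genes. Cd5 was also lower on day 10 in 6 of 6 pairs (median -0.71, range -2.50 to -0.15), and in 6 of 6 under each of the 4 other scalings, where the median was -0.41 in UMIs per cell and -0.43 with TMM scaling. The CD8 chains parted by cytokine between these days. Cd8b1 was lower on day 10 in IL-2 (-0.83 and -0.77 at 5 and 50 IU/mL) and IL-2v (-0.29 and -0.55) and higher in IL-15 (0.19 and 0.23). Cd8a was lower in IL-2 (-0.35 and -0.26) and IL-2v (-0.50 and -0.63) and higher in IL-15 (0.23 and 0.14). The medians over all genes at 5 and 50 IU/mL were 0.26 and -0.25 in IL-2, -0.10 and -0.37 in IL-2v and 0.08 and -0.14 in IL-15. The step of Cd8a in 50 IU/mL IL-2 was thus that of the median gene, and it turned with TMM scaling (154 CPM on day 5 and 163 on day 10) and in UMIs per cell (0.52 and 0.74). Cd8b1 in 5 IU/mL IL-2v also turned in UMIs per cell (2.46 and 2.73), and in 50 IU/mL IL-2 it was nearly level by that measure (0.97 and 0.96). The difference between cytokines in these steps was not tested, and how often all genes show such opposite steps was not counted. Both comparisons of days share the day 5 libraries.

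The 2 CD8 chains did not keep a fixed proportion. There were 2.36 UMIs of Cd8b1 per UMI of Cd8a in naive cells, 2.08 on day 3 and 2.20 on day 5 without cytokine. The lowest ratios were in 50 IU/mL IL-2 on day 10 (1.30) and day 3 (1.33), and the highest in IL-15 on day 10 at 50 IU/mL (2.93). In IL-2 the ratio was 1.86 and 1.33 at 5 and 50 IU/mL on day 3, 2.75 and 1.86 on day 5, and 1.97 and 1.30 on day 10, so the beta chain was lower relative to the alpha chain at the higher dose on each day. The same held in IL-2v, with 2.08 and 1.76, 2.33 and 1.58, and 2.68 and 1.66. In IL-15 it was 2.20 and 2.14, 2.84 and 2.76, and 2.74 and 2.93.

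At the level of cells, the share with no UMI of either CD8 chain was highest in 50 IU/mL IL-2 on day 10 and lowest on day 5 without cytokine (12.5%) in thinned cells. Of cells thinned to 2000 UMIs (87.9% to 99.1% of each library's cells were deep enough), 57.2% (55.7% to 58.6%) had neither in 50 IU/mL IL-2 on day 10, and 13.1% (12.2% to 14.0%) in 5 IU/mL IL-15 on day 10. The share was higher at 50 than at 5 IU/mL in 8 of 9 pairs, the exception being IL-15 on day 3 (17.4% and 16.8%). Without thinning, the share in 50 IU/mL IL-2 was 30.9% on day 10 and 31.0% on day 5, the highest values, and the lowest was 4.70% in 50 IU/mL IL-15 on day 10. Cells with no UMI of Cd3d, Cd3e and Cd3g were rare, 0.13% to 6.12% of thinned cells and 0% to 0.490% without thinning. The highest thinned shares were in 50 IU/mL IL-2 on day 3 (6.12%), 5 IU/mL IL-2v on day 10 (4.13%) and 50 IU/mL IL-2v on day 3 (4.08%). A cell with no UMI need not lack the transcript. No population known to be free of these genes was set apart in the libraries, so the share owed to free RNA was not measured.

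**Figure D3:**
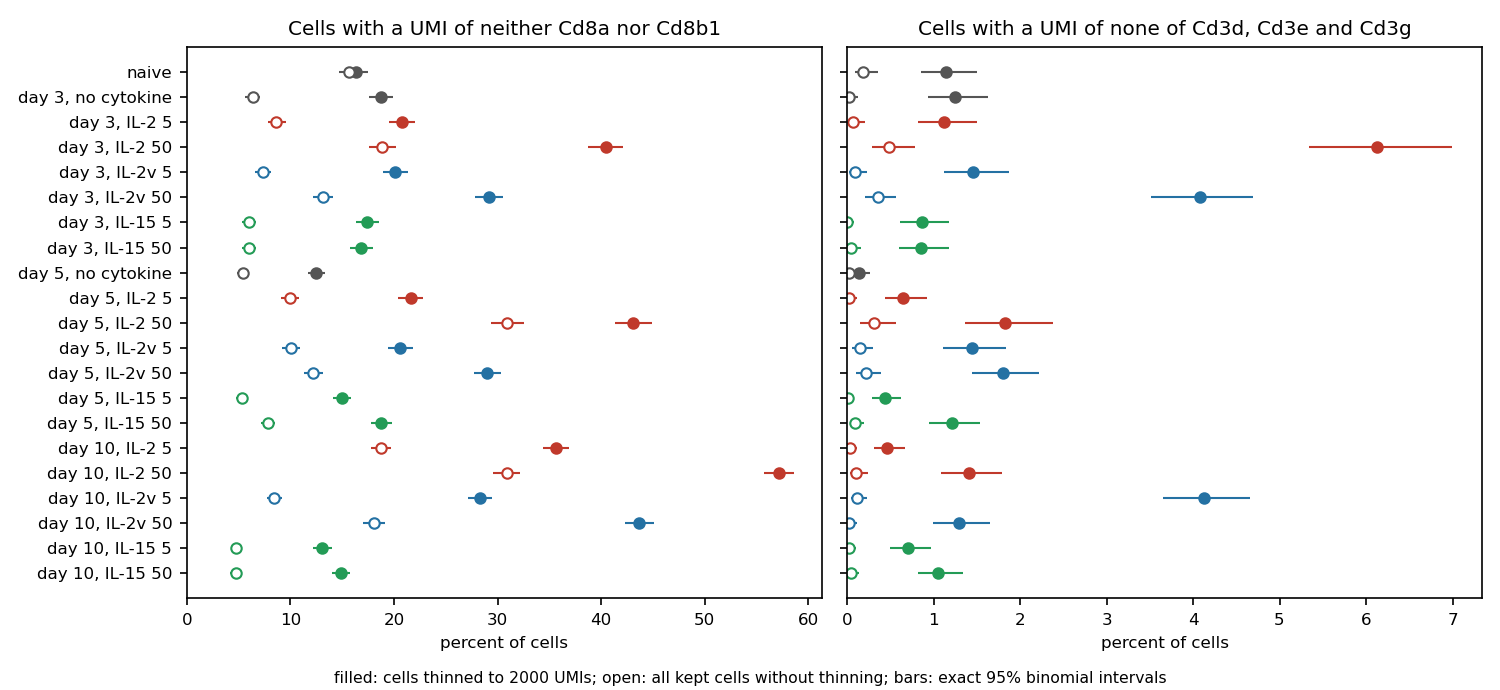
Percent of cells (horizontal axis) with a UMI of neither CD8 chain (left) and of none of Cd3d, Cd3e and Cd3g (right) in each of the 21 libraries (rows; doses in IU/mL), with exact 95% binomial intervals; filled points are cells thinned to 2000 UMIs and open points all kept cells. The naive library has nearly the same share without CD8 UMIs thinned (16.3%) and unthinned (15.7%), unlike the day 3 library without cytokine (18.7% and 6.35%). Filled points leave out cells below 2000 UMIs, so filled and open points do not cover the same cells.

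The share without a CD8 UMI differed little with thinning in naive cells, unlike on day 3 without cytokine. In naive cells it was 16.3% (15.3% to 17.5%) thinned and 15.7% (14.7% to 16.7%) with all UMIs. On day 3 without cytokine it was 18.7% (17.6% to 19.9%) and 6.35% (5.65% to 7.11%). The 2 kinds of share are not of the same cells. Thinned shares cover only cells with at least 2000 UMIs (93.6% of naive and 95.2% of day 3 cells), the others all kept cells. The 731 thinned naive cells without a CD8 UMI had a median of 2930 UMIs, against 3975.5 in the other 3740. With all their UMIs, these 731 cells held Cd8a at 49.7 and Cd8b1 at 132 CPM, against 556 and 1313. Some of them thus did hold CD8 UMIs. Their CD3 genes were at like levels, with Cd3d at 859 and 895 CPM, Cd3e at 593 and 627 and Cd3g at 947 and 880.4. Cd28 was at 206 CPM in them and 87.5 in the others, Cd5 at 231 and 165, and Trac at 582 and 460.2. Cd4 was at 13.4 and 3.02 CPM, and the gamma chain constant genes Tcrg-C1, Tcrg-C2 and Tcrg-C4 at 26.7, 36.8 and 63.1 CPM against 3.40, 4.50 and 5.52. The NK marker Klrb1c was at 13.4 and 1.16 CPM, while Tyrobp was at 0.84 and 1.09. Trdc was at 234 and 255 CPM. Of the B cell markers, Ms4a1 was at 0 and 0.06 CPM and Cd79a at 1.67 and 0.51. Among cells with a CD8 UMI alone, an alternative chosen after the data were seen, Cd28 was at 88.6 CPM in naive cells and 207 on day 3, a log2 difference of 1.21 against 0.99 in all cells. The differences of Cd5 (-0.72), Lck (-0.70), Cd3e (-0.34) and Cd3d (0.33) in those cells were close to those in all cells.

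Several receptor genes made up a slightly smaller share of the UMIs in cycling cells of a library than in its other cells. Cells with a UMI of Mki67 or Top2a were compared with the rest within each of the 21 libraries. Cd3d and Cd8b1 were lower in cycling cells in 20 libraries, and Cd3g and Cd247 in 19. Of 5772 genes tested, 10.4% were lower in at least 19. The median differences were small, -0.17 for Cd8b1, -0.14 for Cd3d, -0.13 for Cd3g and -0.11 for Cd247, where the median over all genes was 0.07. Cd3e was lower in 17 libraries, Cd8a in 16, Cd28 in 15, Cd5 in 13, Trac in 12 and Lck in 11. In the naive library, where 144 of 4777 cells were cycling by this rule, Cd28 (0.71), Cd5 (0.52) and Trac (0.45) were higher in the cycling cells. Cycling cells also held more UMIs in every library, with medians of 4426.5 and 3789 in the naive one. The medians were 5150.5 and 3475 in 5 IU/mL IL-15 on day 5. A smaller share thus need not mean fewer UMIs of a gene per cell, which were not compared here. A cell with more UMIs is also more likely to show a UMI of Mki67 or Top2a.

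**Figure D4:**
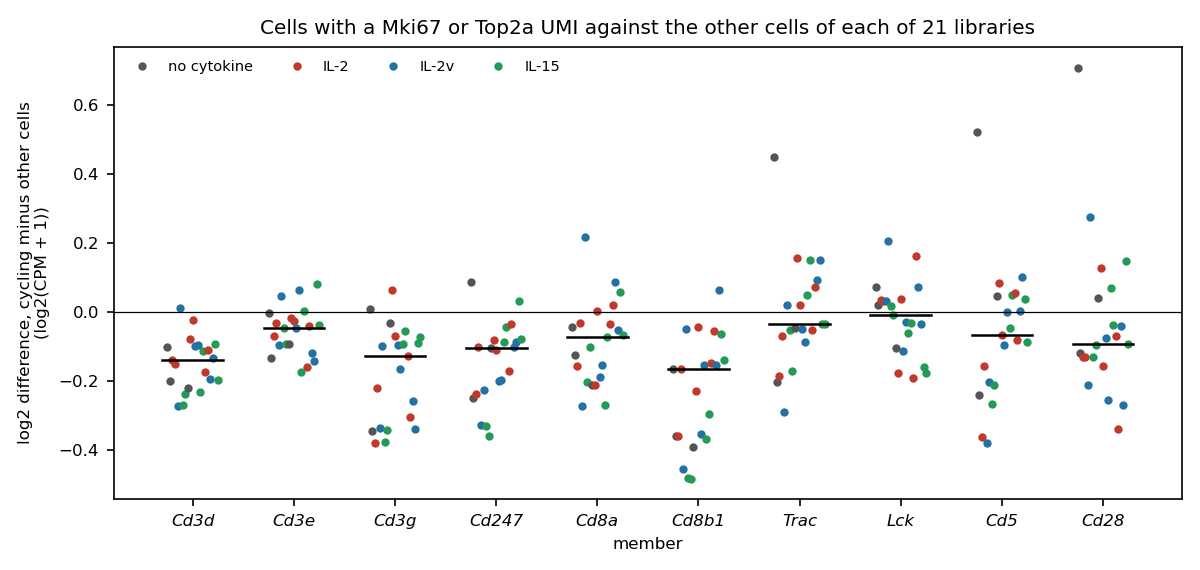
Difference between cells with and without a Mki67 or Top2a UMI on the log2(CPM + 1) scale (vertical axis) for each gene (horizontal axis); each point is 1 of 21 libraries, coloured by cytokine, and bars are medians. Medians run from -0.17 (Cd8b1) to -0.01 (Lck), and the naive library gives the highest points of Trac, Cd5 and Cd28 (0.45, 0.52 and 0.71).

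Beside the members, 44 genes that act next to the receptor were followed as a list. On activation, 4 of 44 passed 2-fold upwards and 5 downwards (11.1% and 8.31% of all genes tested did, near the list's share), with a list median of -0.35 against -0.11 for all genes. The higher ones were Ctla4, an inhibitory competitor of CD28 (5.04 CPM in naive cells and 358 on day 3, log2 difference 5.89), its costimulatory relative Icos (30.6 and 70.5, 1.18), the ubiquitin ligase Cblb (53.7 and 138, 1.34) and the adaptor Sh2d2a (75.0 and 159.7, 1.08). The lower ones were the Tec family kinase Txk (293 and 55.3 CPM, -2.38), the adaptors Grap2 (255 and 108, -1.23) and Trat1 (42.8 and 20.4, -1.03), and the inhibitory membrane adaptors Pag1 (76.7 and 20.9, -1.83) and Lax1 (41.2 and 17.0, -1.23). The partner chains of the receptor beta constant region differed little, with Trbc1 at 0.27 and Trbc2 at -0.02, and the kinase Zap70, which binds phosphorylated zeta, was at 0.38. None of the 44 passed in culture without cytokine from day 3 to day 5, where 3.61% of all genes were higher and 9.47% lower.

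By dose, 0 of 43 list genes tested passed over the 9 pairs in either direction, with a list median of 0.01. Over all genes 0.365% were lower and 0.938% higher, so a list of this size says little by a count of 0. Within IL-2, 4 of 44 were lower past 2-fold and none higher (2.7% and 4.29% of all genes), with a list median of -0.23 against 0.03 for all genes. These were Cd27, a costimulatory receptor (mean 263 CPM at 5 and 67.2 at 50 IU/mL, median log2 difference -1.58), the diacylglycerol kinase Dgka (167 and 82.2, -1.18), Ptprcap, a partner of CD45 (609 and 321, -1.05), and the adaptor Fyb (383 and 234, -1.04). Within IL-2v and within IL-15 none passed, where 0.626% and 0.181% of all genes were lower and 2.38% and 0.869% higher. In the IL-2 pairs Trbc2 was at -0.85 and Trbc1 at -0.32, and Zap70 at -0.18. Against IL-2, 2 of 43 list genes were lower past 2-fold with IL-2v, Ctla4 (median -1.27) and Icos (-1.07), as were 0.274% of all genes. Against IL-15, 1 of 43 was, Cd27 (-1.11), as were 0.585% of all genes. From day 5 to day 10, 2 of 44 were, Ctla4 (-2.56) and Trat1 (-1.81), as were 1.62% of all genes.

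Genes whose level over the 21 libraries was most like that of each member were ranked by Pearson's r of log2(CPM + 1) among 5494 genes. These values are descriptions of 21 libraries that share days and cytokines. Nearest to Cd5 were Cd6, a receptor of the same family (r = 0.97), Slamf6 (0.96) and Cbx7 (0.96). Nearest to Cd8b1 were Sidt1 (0.95), Fam78a (0.95) and Fam53b (0.95), and nearest to Cd8a were Ift80 (0.93), Cd8b1 (0.91) and Nlk (0.90). For Cd3e they were Dmac2 (0.95), Tmem106b (0.92) and Bcl11b (0.92), a T cell transcription factor. For Cd3d they were AW112010 (0.90), Xpa (0.89) and 3830406C13Rik (0.87), and for Cd3g Tspo (0.87), Tmem134 (0.87) and Rnasek (0.87). Cd3g was the sixth nearest to Cd3d (0.84), while Cd3e was 227th (0.58). Cd3e was nearer to Cd8b1 (0.83) than to either of its neighbours on chromosome 9, Cd3d (0.58) and Cd3g (0.52). For Trac they were Atf7ip (0.90), Lipa (0.89) and Map4k4 (0.88), for Cd247 Washc3 (0.88), Uckl1 (0.80) and Atf7ip (0.80), for Lck Pde7a (0.87), Wdr33 (0.82) and Scamp3 (0.82), and for Cd28 Pef1 (0.84), Pip4k2a (0.81) and Fbxl5 (0.81).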

How the data were processed

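The 21 tables held whole-number counts of UMIs per gene and cell barcode, as the authors deposited them, with 1 table per library. The submitters' processing notes name mm10, Cell Ranger and Seurat 3.0.2 and 4.0.1, without their role. Values per barcode ran from 1002 to 13407 UMIs, and any removal of doublets before deposit is not given in the sources used here. The sorting text in the labels describes cells from tumours, while the growth text describes culture, and the libraries were read as cultured cells. Groups follow the sample titles. The treatment labels of 6 libraries name interleukin-3 for 50 IU/mL IL-2 and interleukin-16 for 50 IU/mL IL-15. Day 7 of the culture was not analysed here.

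A cell was kept if it held 1000 or more UMIs, 500 or more genes and no more than 10% mitochondrial UMIs, which removed 2 barcodes. No doublet caller was run, and an alternative left out cells above 2 times the median UMIs. UMIs were summed per library and scaled to CPM, and differences were taken on the log2(CPM + 1) scale, which understates the change of low genes. Genes reaching 20 CPM in either arm were tested. A gene passed where its difference was at least 2-fold, and in comparisons of several pairs where its sign was the same in all pairs and its median at least 2-fold. With 1 library per condition no model was fitted. The scripts were tested on simulated counts. Intervals are exact Poisson or Clopper-Pearson 95% intervals and cover counting error only. Alternatives were TMM scaling (edgeR 4.0.16), library totals that leave out ribosomal and mitochondrial genes, the mean CPM of single cells, mean UMIs per cell, cells without a Mki67 or Top2a UMI, at most 5% mitochondrial UMIs, a pseudocount of 10 CPM, no filter on genes, 1.5-fold, each day left out, and thinning to 1000 UMIs or none. Python 3.11.15 and scipy 1.17.1 were used.

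The genes, the list of 44 neighbouring genes and the comparisons were chosen with earlier results of these data known. Named genes are the 10 members, list genes past the threshold in a comparison described, marker genes, and the 3 genes most like each member. The few other list genes given with values (Trbc1, Trbc2 and Zap70) and the Trbv segments were chosen after their values were seen.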

Additional observations from a re-analysis of the deposited data

Results flagged for a closer look

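9 results were flagged by a rule. The step between days went one way in both dose pairs of 1 cytokine and the opposite way in both dose pairs of another. How often all genes meet this rule was not counted, so the number of flagged results is not a finding about these genes. Each of the 9 rests on 2 libraries per day and cytokine, and the differences between cytokines were not tested. Values are differences between the mean log2 steps of the first and the second cytokine named. From day 5 to day 10, the step of Cd8b1 differed by -1.01 between IL-2 and IL-15 and by -0.63 between IL-2v and IL-15. That of Cd8a, the other CD8 chain, differed by -0.49 and -0.75 in the same comparisons. In 50 IU/mL IL-2 the step of Cd8a turned upwards with TMM scaling (154 and 163 CPM) and in UMIs per cell (0.52 and 0.74), and in 5 IU/mL IL-2v that of Cd8b1 did so in UMIs per cell (2.46 and 2.73). From day 3 to day 5, the step of Cd8b1 differed by 0.23 between IL-2 and IL-2v and by -0.24 between IL-2v and IL-15. In the same interval the step of Trac differed by 0.39 and that of Lck by 0.26 between IL-2 and IL-15, and that of Cd247 by 0.35 between IL-2v and IL-15. Several of these steps were small: in 50 IU/mL IL-2 Cd8b1 was at 293 CPM on day 3 and 298 on day 5, in 50 IU/mL IL-15 at 717 and 726, and Trac in 5 IU/mL IL-2 was at 328 on both days. Counted after the data were seen, the opposite directions held for 7 of the 9 with totals that leave out ribosomal protein and mitochondrial genes, 5 with TMM scaling, 5 by the mean CPM of single cells, 4 among cells that had no UMI of Mki67 or Top2a, and 2 in UMIs per cell. The 2 were Cd8b1 between IL-2 and IL-15 and Cd8a between IL-2v and IL-15, both from day 5 to day 10, and they held under each of these settings. None of the 5 from day 3 to day 5 held in UMIs per cell.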

How the results depend on the processing

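Counts were recomputed under each alternative, and 248 of 272 stayed within 1.5 times the main one. They include counts of dose pairs by share of cells and of libraries by cycling. Most main counts of members past the threshold were 0, and a 0 that stayed 0 is among the 248, so this number says little about the threshold. Members past it on activation were 1 higher in place of 0 with TMM scaling, mean UMIs per cell, cells without a Mki67 or Top2a UMI, cells up to 2 times the median UMIs and a 1.5-fold threshold, each time Cd28, and 3 lower at 1.5-fold (all genes at 1.5-fold: 19.6% higher, 23.2% lower). At 1.5-fold, culture without cytokine had 3 higher and 1 lower (all genes 12.5% and 18.3%), cytokine against none 34 of 120 lower (6.21%), dose 1 of 10 lower (1.13%), dose within a cytokine 5 of 30 lower (3.64%), IL-2v against IL-15 1 of 10 lower (2.07%) and days 1 of 20 lower (6.46%). Against no cytokine, higher values were 0 in place of 1 with TMM scaling, totals without ribosomal protein and mitochondrial genes, mean UMIs per cell and a pseudocount of 10 CPM, and lower values were 13 in place of 8 with TMM scaling. For dose within a cytokine, 2 in place of 1 were lower with TMM scaling, mean UMIs per cell, and without day 3 or day 5. For IL-15 against IL-2, 0 in place of 1 were higher without day 10. Libraries with less Lck in cycling cells were 7 in place of 11 after thinning. Single values were less stable: 1259 alternative values of differences, shares and correlations moved past the limit set for them (counting error for the first 2 kinds), and 1399 did not. Of 2148 single differences under alternatives, 2035 kept their sign. The main difference largest in size that changed it was -0.42 (Cd8b1, day 10 against day 5), which was 0.07 in mean UMIs per cell. Leaving out each of the 9 dose pairs, an alternative chosen after the data were seen, changed no count for dose. These counts were 0 in both directions. The median furthest from 0 was -0.60 (Cd8b1), and without 1 pair it could not reach 2-fold, so this alternative could not have changed them.

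Libraries were matched by cytokine, dose and day and described without a test. The labels give no replicate numbers, so no replicate block was fitted, and leaving out a replicate would leave no library. Depth limits the shares of Cd5: in every library most thinned cells had no UMI of it, from 72.3% in naive cells to 97.9% in 50 IU/mL IL-2 on day 10.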
